A study of Mus musculus with 4 samples.

Results

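The mitochondrial ribosomal protein genes were taken as all genes whose symbol starts with Mrpl or Mrps followed by a digit. This rule found 76 of the 23285 genes in the deposited table, and all 76 passed the filter for testing (a mean of at least 1 FPKM, fragments per kilobase of transcript, scaled for library size). RNA had been sequenced from mouse thymocytes sorted at the DN3 stage, the CD25-positive stage at which the T cell receptor beta gene is rearranged. Donor fetal liver cells of either wild-type (WT) or Gata3(g/g) genotype had been given to irradiated recipients, and DN3 cells were sorted after 16 weeks. Both genotypes are labelled C57BL/6, and Gata3(g/g) is labelled a hypomorph, that is, a genotype with reduced function of Gata3, which encodes a transcription factor required in T lineage development. Each genotype had 2 libraries, of which the replicates 1 were sequenced together in one run (run 1) and the replicates 2 in another (run 2). The labels do not say whether the libraries of a genotype came from separate recipients, how many animals were pooled or what host cells remained, so the p-values concern the spread between these libraries, which may be technical.

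Mitochondria carry their own ribosome, which translates the few proteins encoded by mitochondrial DNA, all of them subunits of the respiratory chain and of ATP synthase. Its ribosomal RNAs come from mitochondrial DNA, but its proteins are encoded in the nucleus, made in the cytosol and imported. Some are descended from bacterial ribosomal proteins and others were added in the mitochondrial lineage. Proliferating T cell precursors raise mitochondrial biogenesis together with cytosolic ribosome synthesis, and MYC, NRF1 and GABP, a factor of the ETS family, are known regulators of such genes.

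The libraries held between 14331705 and 26901913 fragments, and the members had between 149 and 4038 fragments in a library. Gata3 itself was higher in the libraries labelled Gata3(g/g), at 120 and 96.1 FPKM against 62.4 and 58.5 FPKM in WT. Directions given for Gata3(g/g) therefore rest on the labels, and whether the altered allele contributed to the count cannot be read from a gene total. Of the 8 DN3 markers listed, all passed the filter, and their summed level was 1888 and 2014 FPKM in WT and 2331 and 2393 FPKM in Gata3(g/g). Of these, Il2ra, which encodes CD25, was called higher with the block described further on (277 and 261 FPKM in WT, 569 and 492 FPKM in Gata3(g/g)), Dntt was higher without a call, Rag1 and Cd3e had log2 fold changes of −0.40 and −0.20 without a call, and Ptcra and Rag2 were at 0.00 and −0.03. The runs differed in markers of other cells. The summed level of 8 erythroid genes was 1.21 and 2.20 FPKM in the run 1 libraries and 464 and 593 FPKM in the run 2 libraries, with Hba-a2 at 0 FPKM in both run 1 libraries, and that of 10 stress and immediate-early genes was 662 and 468 FPKM in run 1 and 42.4 and 53.4 FPKM in run 2. The 9 myeloid markers summed to 11.1 and 18.7 FPKM in run 1 and to 49.6 and 62.6 FPKM in run 2, a sum carried in run 2 by S100a8 and S100a9. Lyz2, a lysozyme gene of myeloid cells, was lower in run 2 and also differed by genotype. It measured 9.93 and 4.20 FPKM in WT and 18.7 and 13.6 FPKM in Gata3(g/g) (log2 fold change 1.27, adjusted p = 0.00061 by edgeR with the run as a block). Csf1r and Itgam stayed under 0.3 FPKM in each library. With this block, 3 of 8 tested stress genes (37.5%) were called lower and 1 (12.5%) higher. Of 7 tested erythroid genes, 1 (14.3%) was called higher. Of all genes, 2.99% were called lower and 3.90% higher. The 2 tested B lineage markers had log2 fold changes of 0.17 and 0.93 without a call. The 4 double-positive thymocyte markers summed to 6.51 and 3.43 FPKM in WT and to 10.8 and 10.05 FPKM in Gata3(g/g). Of the 3 tested, 2 (66.7%) were called higher with the block, against 3.90% of all genes. The other went the opposite way, with a log2 fold change of −0.42 without a call. The part of these differences in the results was not tested.

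The promoters of members that were lower in Gata3(g/g) by the test described further on are shown to let their motifs be compared. Mrpl54 is not shown. Each is the sequence of the 150 bases before the RefSeq transcription start (GRCm38.p6), printed 5′ to 3′ on the gene's strand, with matches to the ETS and GABP letters (CCGGAAG) or the NRF1 letters (GCGCANGCG) in capitals on either strand. Those of Mrpl34, Mrpl52 and Mrps26 hold an ETS match, that of Mrpl12 an NRF1 match, and that of Mrpl23 neither. The GC box named below had 2 matches in that of Mrpl23 and 1 in that of Mrps26. GENCODE vM21 starts Mrpl23 earlier, at 142532686, so by that annotation its printed bases lie inside the gene. The GENCODE starts of Mrpl12 (120484613) and Mrps26 (130563742) fall within their printed bases.
Mrpl23, chr7:142532882-142533031, plus strand: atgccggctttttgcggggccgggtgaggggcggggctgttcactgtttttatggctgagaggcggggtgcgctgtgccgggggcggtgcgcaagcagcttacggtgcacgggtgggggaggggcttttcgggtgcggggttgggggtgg
Mrpl34, chr8:71464776-71464925, plus strand: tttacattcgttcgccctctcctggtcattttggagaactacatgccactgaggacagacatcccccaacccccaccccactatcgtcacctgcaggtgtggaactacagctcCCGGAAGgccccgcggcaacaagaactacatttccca
Mrpl52, chr14:54426759-54426908, plus strand: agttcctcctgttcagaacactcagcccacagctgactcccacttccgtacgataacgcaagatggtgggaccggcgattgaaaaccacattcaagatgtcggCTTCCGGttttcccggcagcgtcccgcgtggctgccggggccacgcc
Mrpl12, chr11:120484487-120484636, plus strand: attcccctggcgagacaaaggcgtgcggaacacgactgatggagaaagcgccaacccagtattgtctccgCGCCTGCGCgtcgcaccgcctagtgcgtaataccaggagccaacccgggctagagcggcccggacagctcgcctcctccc
Mrps26, chr2:130563607-130563756, plus strand: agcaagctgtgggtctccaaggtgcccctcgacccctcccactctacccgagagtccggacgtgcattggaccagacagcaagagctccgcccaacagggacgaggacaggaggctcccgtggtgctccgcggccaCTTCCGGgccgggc

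Over the whole RefSeq windows, which run from upstream of the start into the first transcribed bases, 67 of the 76 members matched the RefSeq table by symbol, with 73 windows. The ETS letters were in 32.9% of the member windows and in 8.86% of all 32817 windows. The NRF1 letters were in 20.5% against 6.24%, and the YY1 letters (AAGATGGCG) in 11.0% against 1.40%. The GC box of SP and KLF factors (GGGCGG) stood in 52.1% of member windows and 35.6% of all, and the TATA letters (TATAAA) in 6.85% and 13.6%. For MYC and GATA factors the shares lay closer together. The MYC E-box (CACGTG) was in 9.59% of member windows and 7.15% of all, and the GATA letters (AGATAA) in 15.1% and 11.2%. Both strands were searched, no 2 of these letter strings contain one another, and a match describes the sequence and not binding. In GENCODE vM21, 36.8% of the members had another gene starting head to head within 500 bases, against 13.3% of 21951 protein-coding genes.

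Member genes spanned a 94.7-fold range of mean FPKM. Only 3 members lay above 100 FPKM on average, 65 lay between 10 and 100 FPKM, and 8 lay below 10 FPKM. Mrpl52, which encodes a large-subunit protein without bacterial counterpart, was highest at 253 and 400 FPKM in WT and 195 and 265 FPKM in Gata3(g/g). It was followed by Mrpl33, at 176, 192, 161 and 197 FPKM (WT replicates 1 and 2, then Gata3(g/g) replicates 1 and 2, the order kept from here on), and Mrpl30, at 178, 173, 144 and 151 FPKM, both large-subunit proteins with bacterial counterparts. For Mrpl33 the genotypes overlapped, and for Mrpl30 both Gata3(g/g) libraries were below both WT libraries.

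At the low end, Mrpl17 measured 2.82, 3.78, 2.56 and 2.60 FPKM and Mrpl9 8.92, 7.38, 7.75 and 6.32 FPKM, both coding for large-subunit proteins with bacterial counterparts. Mrpl1, whose protein forms the mobile L1 stalk beside the exit site for tRNA, measured 2.75, 10.1, 3.10 and 7.72 FPKM and was higher in both run 2 libraries than in both run 1 libraries. Transcript levels per length thus differed widely among the proteins of one particle, as the plot of levels by library shows. This order rests on the transcript lengths used for FPKM, whose annotation was not given. By fragments summed over the 4 libraries, Mrps25 (11543) exceeded Mrpl52 (9963), and Mrpl17 (2889) exceeded Mrpl22 (775).

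**Figure D1:**
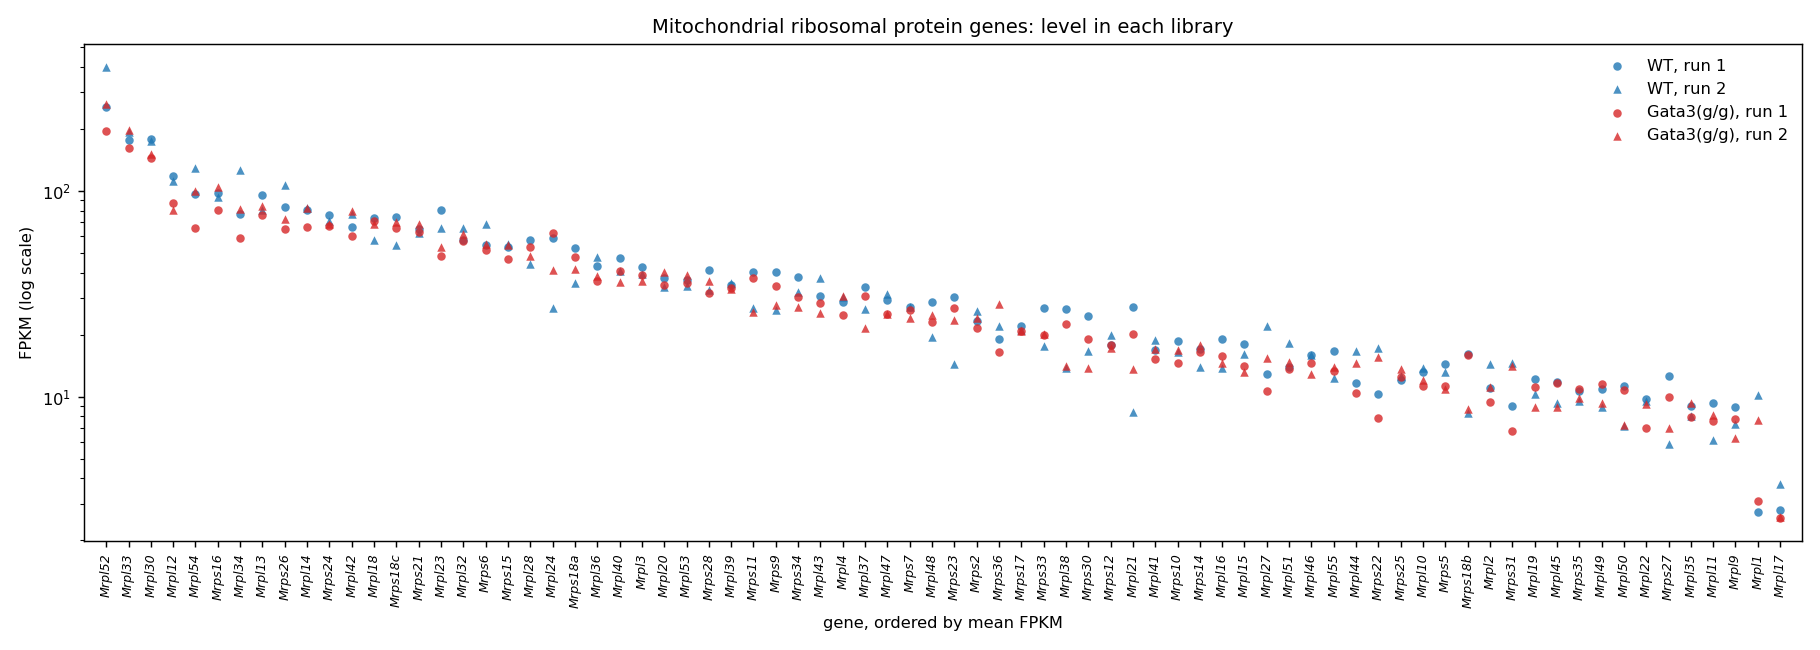
FPKM (log axis) of the 76 mitochondrial ribosomal protein genes in each library, ordered by mean, with WT in blue, Gata3(g/g) in red, run 1 as circles and run 2 as triangles. Mrpl52 is highest and Mrpl17 lowest, and several genes, such as Mrpl21 and Mrpl1, separate by run more than by genotype.

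The comparison of WT with Gata3(g/g) asks whether DN3 cells with altered Gata3 differ in these transcripts. Most members were slightly lower in Gata3(g/g), but few differences were called by a test, and those only once the run was taken into account. By edgeR's quasi-likelihood F test with genotype alone, 0 of the 76 members were called higher or lower at a Benjamini-Hochberg adjusted p of 0.05 (background 0.00% of 10224 tested genes higher and 0.00% lower), and 1 member, Mrpl23, had an unadjusted p under 0.05 (3.84% of all genes did). DESeq2 and limma with genotype alone called 0 members, and neither gave a member an unadjusted p under 0.05. With the replicate number, which marks the shared run, as a block (the blocked edgeR fit), edgeR called 6 members lower, or 7.89% of them, against a background of 2.99% of all genes lower. It called 0 members higher, against a background of 3.90%. An unadjusted p under 0.05 was found for 12 members, or 15.8%, which is below the share of all genes, 20.9%.

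These 6 calls did not hold under other tests with the same block. DESeq2, limma on log2(FPKM + 1), edgeR scaled by total fragments alone and edgeR restricted to genes of at least 5 FPKM each called 0 members lower and 0 higher. Their shares of all genes called lower were 1.83%, 0.0782%, 2.05% and 1.91%, so that 0 of 76 lies close to the background, for limma above all. By q-value, 0 members passed 0.05 in the authors' deposited table, and the smallest was 0.0597, for Mrpl34. The share of all genes that passed there is not given here, so this count has no background beside it.

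The 5 large-subunit genes among the 6 included a protein of the exit tunnel and the stalk protein that recruits translation factors. Mrpl23, which encodes the homologue of the bacterial protein at the tunnel exit, measured 80.1 and 65.7 FPKM in WT and 48.0 and 53.2 FPKM in Gata3(g/g). Both Gata3(g/g) libraries lay below both WT libraries, and the log2 fold change was −0.53 ± 0.144 (SE), with an adjusted p of 0.0362 in the blocked edgeR fit. The difference within run 1 was −0.70 and within run 2 −0.34 on the log2 CPM scale (fragment counts scaled to library size). GENCODE vM21 places the gene on chromosome 7 from 142532686 to 142540747 and lists 1 pseudogene named after it, so its fragments may be shared.

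Mrpl12, which encodes the L7/L12 stalk protein and is also known to bind the mitochondrial RNA polymerase, measured 118 and 111 FPKM in WT and 86.7 and 80.0 FPKM in Gata3(g/g). The genotypes did not overlap. Its log2 fold change was −0.46 ± 0.122 (SE) with an adjusted p of 0.0318 in the blocked edgeR fit, with −0.42 in run 1 and −0.50 in run 2, and 200 of its exon bases (chromosome 11, 120484613 to 120489065) overlap the antisense gene Gm16755. For Mrpl34, a small basic protein with a bacterial counterpart (chromosome 8, 71464959 to 71465747), the values were 76.6 and 126 FPKM in WT and 59.1 and 81.2 FPKM in Gata3(g/g). Gata3(g/g) was the lower library in each run, but across runs the genotypes overlapped, and the log2 fold change was −0.51 ± 0.139 (SE) with an adjusted p of 0.0368 in the blocked edgeR fit. With genotype alone the Mrpl34 difference of −0.54 became −0.13 without WT replicate 2, −0.35 without Gata3(g/g) replicate 1 and −0.87 without WT replicate 1, where leaving out 1 library also leaves the runs unequal between genotypes.

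The other large-subunit genes in the group encode proteins added in mitochondria. Mrpl52 (chromosome 14, 54426909 to 54429756), with the values given above, had a log2 fold change of −0.49 ± 0.129 (SE) with an adjusted p of 0.0294 in the blocked edgeR fit, with −0.33 in run 1 and −0.65 in run 2. Mrpl54 (chromosome 10, 81264713 to 81266934) measured 96.7 and 128 FPKM in WT and 65.9 and 99.2 FPKM in Gata3(g/g), a log2 fold change of −0.46 ± 0.133 (SE) with an adjusted p of 0.0467 in the blocked edgeR fit. Both genes were lower in Gata3(g/g) within each run and overlapped across runs, being higher in run 2 in both genotypes. With genotype alone, Mrpl52 went from −0.52 to −0.16 without WT replicate 2 and to −0.82 without WT replicate 1. Mrpl54 went from −0.45 to −0.23 without WT replicate 2, −0.21 without Gata3(g/g) replicate 1 and −0.74 without Gata3(g/g) replicate 2. Mrps26, the small-subunit gene called (chromosome 2, 130563742 to 130568695), measured 82.9 and 106 FPKM in WT and 65.2 and 72.5 FPKM in Gata3(g/g) without overlap, a log2 fold change of −0.45 ± 0.127 (SE) with an adjusted p of 0.0457 in the blocked edgeR fit. In GENCODE vM21, 8 of its exon bases overlap the antisense gene 4930473A02Rik, and with genotype alone its difference of −0.46 became −0.26 without WT replicate 2. The adjusted p of the next member was 0.186, for Mrps30, so Mrps26 and Mrpl54 were the members closest inside the threshold.

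**Figure D2:**
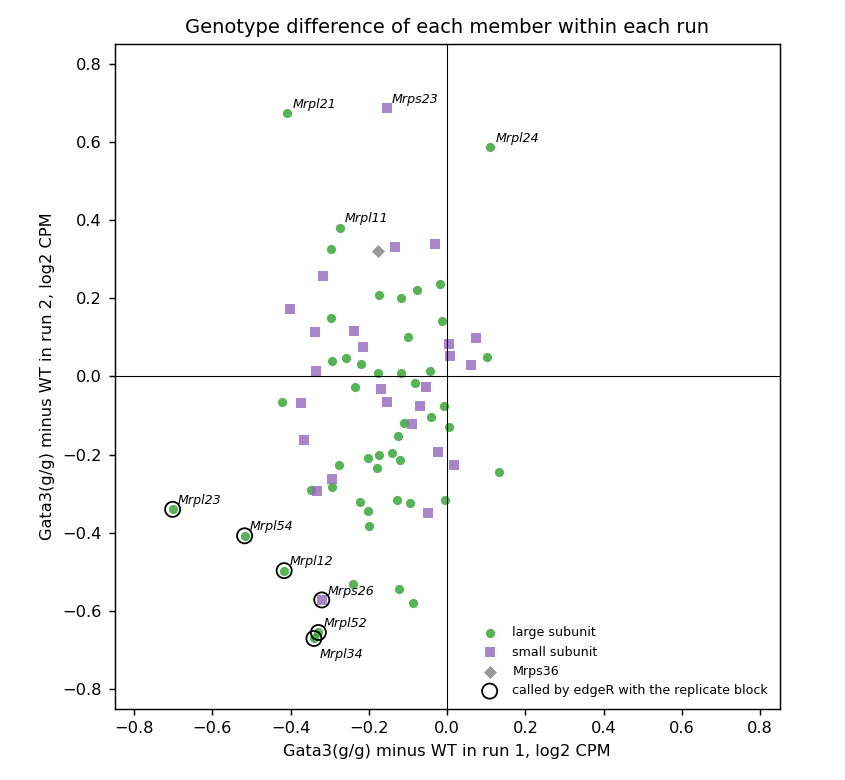
Difference between Gata3(g/g) and WT in log2 CPM within run 1 (x axis) and within run 2 (y axis) for each member, by ribosomal subunit, with the 6 members called by edgeR with the replicate block ringed. The 41 members in the lower left were lower in Gata3(g/g) in both runs and the 6 in the upper right were higher in both.

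Across all members, differences below 0 outnumbered those above. With the block, 58 of 76 log2 fold changes (76.3%) were below 0, against 48.7% of all tested genes, and their median was −0.11 against 0.01. In run 1, 67 members (88.2%) were lower in Gata3(g/g), with a median of −0.17, and in run 2, 44 (57.9%), with a median of −0.07. Both runs were below 0 for 41 members (53.9%, against 31.3% of all genes) and above 0 for 6 (7.89%, against 33.3%). Both Gata3(g/g) FPKM values lay below both WT values for 21 members (27.6%, against a background of 14.8%) and above both for 0 members (against a background of 14.2%). Members made up 0.464% and 0.448% of the fragments in the WT libraries and 0.425% in each Gata3(g/g) library. Fewer cells of a type and less RNA per cell cannot be told apart in such sums.

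The shift was small beside that of cytosolic ribosomal protein genes, of which 76 were tested. Their median was −0.33, and 71 (93.4%) were below 0, against 48.7% of all genes. EdgeR with the block called 10 of them lower (13.2%, background 2.99%) and 0 higher (background 3.90%). With genotype alone it called 0 of them in either direction. Differences of members ranged from −0.53 (Mrpl23) to 0.34 (Mrpl24), and the members were spread less widely than all genes. Their quartiles were −0.23 and −0.01, against −0.17 and 0.19 for all genes, so the displacement in the cumulative plot was smaller at the lower quartile than at the upper.

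**Figure D3:**
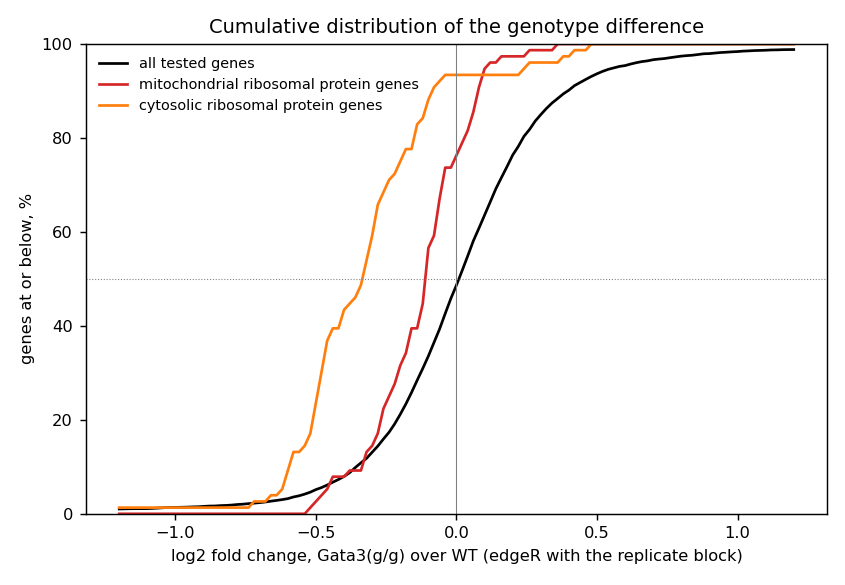
Cumulative share of genes (%) by log2 fold change of Gata3(g/g) over WT, from edgeR with the replicate block, for all 10224 tested genes, the 76 mitochondrial and the 76 cytosolic ribosomal protein genes. The mitochondrial curve crosses 50% at −0.11, between the cytosolic curve at −0.33 and that of all genes at 0.01.

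By place in the ribosome, the 49 large-subunit genes had a median of −0.13 and the 26 small-subunit genes a median of −0.10. With the block, 5 large-subunit genes (10.2%) and 1 small-subunit gene (3.85%) were called lower, against a background of 2.99%. Within run 1 the medians were −0.17 and −0.15, and within run 2 −0.13 and −0.01. Genes with a bacterial counterpart (46) and those without (30) both had a median of −0.11, with 3 called lower in each (6.52% and 10%). The difference between these classes was not tested. Mrps30 and Mrps18a, whose proteins sit in the large subunit despite their names, had log2 fold changes of −0.32 and 0.04. Mrps30 measured 24.5, 16.6, 19 and 13.7 FPKM, lower in Gata3(g/g) in each run with overlap across runs, and Mrps18a 52.7, 35.7, 47.7 and 41.7 FPKM, with overlap. Mrps36, whose product belongs to the 2-oxoglutarate dehydrogenase complex and was once taken for a ribosomal protein, stood at 19.1, 21.9, 16.5 and 28 FPKM with opposite directions in the runs, and GENCODE lists 3 pseudogenes named after it.

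The 3 members with the largest positive difference of one sign in both runs did not pass the test. Mrpl24, which encodes a protein that starts the folding of the large-subunit RNA in bacteria, measured 58.6, 27.0, 62.2 and 41.1 FPKM. Gata3(g/g) was higher within each run, by 0.11 in run 1 and 0.59 in run 2, the genotypes overlapped, and the log2 fold change was 0.34 ± 0.148 (SE) with an adjusted p of 0.196 in the blocked edgeR fit. GENCODE vM21 shows 594 of its exon bases overlapping the antisense gene Rrnad1. Mrps25 measured 12, 12.6, 12.5 and 13.6 FPKM and Mrpl49 10.9, 8.94, 11.5 and 9.35 FPKM, with log2 fold changes of 0.09 and 0.08 and overlapping genotypes. Of the exon bases of Mrps25, 4590 overlap the antisense gene Nr2c2.

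For 29 members the runs gave opposite directions. The widest split was in Mrpl21, a large-subunit protein with a bacterial counterpart, which measured 27.3 and 8.40 FPKM in WT and 20.2 and 13.6 FPKM in Gata3(g/g). Gata3(g/g) was lower by 0.41 in run 1 and higher by 0.67 in run 2, so the WT libraries enclosed the Gata3(g/g) libraries. Mrps23 did the same at 30.4, 14.4, 26.9 and 23.4 FPKM (−0.15 and 0.69), as did Mrpl11, a protein of the stalk base, at 9.33, 6.17, 7.61 and 8.09 FPKM (−0.28 and 0.38). Across the 76 members the differences of the runs, which share no library, had a Spearman correlation of 0.169, against 0.435 across all tested genes. Genes are not independent replicates, so these are descriptions.

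The runs themselves separated more members than the genotypes did. With genotype as a term, edgeR called 9 members higher in run 2 (11.8%, background 17.5%) and 12 lower (15.8%, background 17.3%), and 55 were not called. The run difference exceeded the genotype difference in size for 47 of the 76 members (61.8%, against 65.8% of all genes), with median sizes of 0.21 and 0.12 (0.31 and 0.18 over all genes). Limma on log2(FPKM + 1) with the same terms called 4 higher and 5 lower. Its share of all genes is not given here, so these counts have no background beside them.

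Mrpl1, with the values given above, rose by 1.19 ± 0.173 (SE, log2 scale, adjusted p = 8.69e-05 by edgeR) from run 1 to run 2. Mrps31, at 8.95, 14.5, 6.79 and 14 FPKM, and Mrps22, at 10.3, 17.2, 7.84 and 15.5 FPKM, both proteins of the mitochondrial small subunit without bacterial counterpart, rose by 0.89 and 0.87. In each of the 3 both run 2 libraries were above both run 1 libraries. In the other direction, Mrpl21 fell by 1.11, Mrps18b, at 16.1, 8.28, 15.9 and 8.71 FPKM, by 0.91, and Mrpl24 by 0.86, and again the runs did not overlap. Mrps18b encodes one of the 3 S18 homologues, of which Mrps18c keeps the bacterial place, and GENCODE shows 638 of its exon bases overlapping the antisense gene Gm16279. Across members the run differences of the genotypes had a Spearman correlation of 0.721, against 0.758 across all genes.

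**Figure D4:**
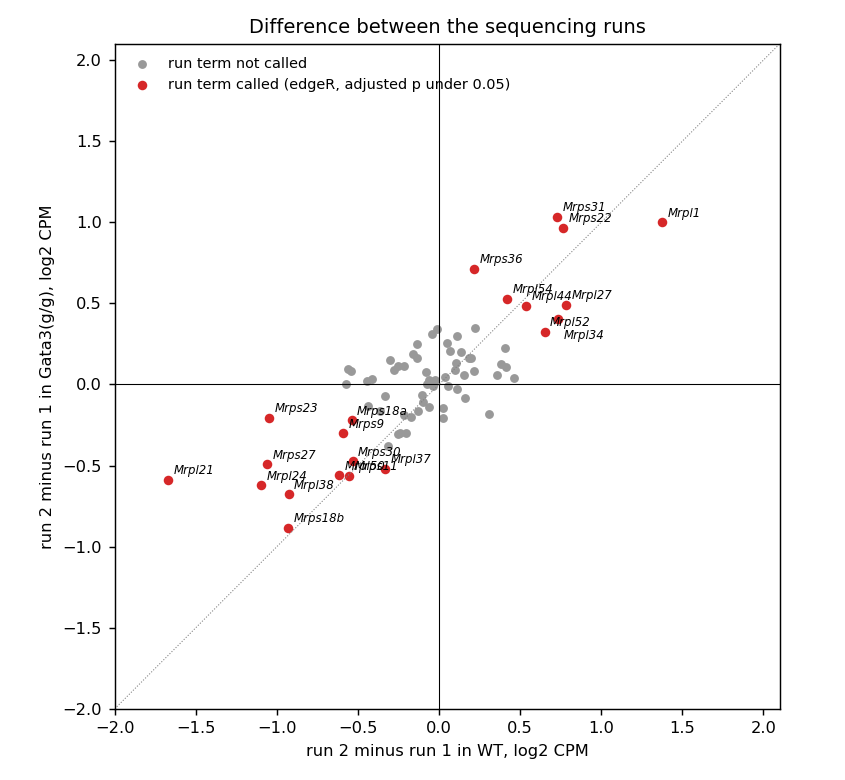
Difference of run 2 minus run 1 in log2 CPM in WT (x axis) and in Gata3(g/g) (y axis) for each member, with the 21 members whose run term edgeR called in red and labelled. The red points lie in the upper right or lower left, so that both genotypes moved the same way between runs.

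Other genes of mitochondrial translation were read from lists that together name 110 genes, of which 92 were in the deposited table and 90 were tested. Among the 110 are the 13 protein-coding genes of mitochondrial DNA, whose products this ribosome makes. None of the 13 was found by symbol among the deposited genes kept, so they were not analysed. EdgeR with genotype alone called 0 of the 90, and with the block it called 1 higher (1.11%, background 3.90%) and 2 lower (2.22%, background 2.99%). With the block, DESeq2 called 0 higher and 1 lower, and limma called 0 in either direction. The 7 mitochondrial ribosomal proteins whose symbols do not follow the rule all had log2 fold changes below 0, with a median of −0.23, and none was called. Chchd1, a protein of the small subunit, was the lowest of them at 129, 203, 105 and 141 FPKM (log2 fold change −0.42, adjusted p = 0.0659 in the blocked edgeR fit), and Dap3, a small-subunit protein that binds GTP, stood at 17.9, 13.1, 14.7 and 11.0 FPKM.

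Translation factors of the mitochondrion (15 tested) had a median of 0.02, genes of ribosome assembly and rRNA modification (26) −0.03, aminoacyl-tRNA synthetases (17) −0.14, and genes of mitochondrial DNA and RNA synthesis (16) −0.11. In the assembly list Mterfd1, the older symbol of Mterf3, a negative regulator of mitochondrial transcription with a role in assembly of the large subunit, measured 18.1, 7.48, 21 and 15 FPKM. It was higher in Gata3(g/g) within each run, by 0.23 and 0.98, with a log2 fold change of 0.59 ± 0.168 (SE) with an adjusted p of 0.0462 in the blocked edgeR fit, and the genotypes overlapped across runs. The call was lost with the block under DESeq2, limma and a minimum of 5 FPKM. With genotype alone its difference of 0.50 became 0.006 without WT replicate 2, 0.23 without Gata3(g/g) replicate 1 and 1.24 without WT replicate 1.

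Regulators of mitochondrial biogenesis (9 tested) had a median of −0.08, and edgeR with the block called 2 lower (22.2%, background 2.99%). EdgeR with genotype alone and limma with the block called neither of these 2. Myc, which drives ribosome synthesis and mitochondrial biogenesis in growing cells, measured 212 and 325 FPKM in WT and 133 and 143 FPKM in Gata3(g/g), without overlap. Its log2 fold change was −0.93 ± 0.175 (SE) with an adjusted p of 0.00308 in the blocked edgeR fit, and with genotype alone −0.96, which became −0.60 without WT replicate 2. Ppargc1b, a coactivator of NRF1-dependent genes, measured 3.51, 4.36, 2.29 and 2.23 FPKM, also without overlap. Its log2 fold change was −0.78 ± 0.176 (SE) with an adjusted p of 0.0116 in the blocked edgeR fit, and at a minimum of 5 FPKM it was not tested. Among factors whose letters were searched, Nrf1, Gabpa and Yy1 were not called. Nrf1 measured 14.4, 15.9, 14.1 and 14.4 FPKM, Gabpa 13.9, 8.22, 14.8 and 10.3 FPKM and Yy1 40.3, 49.9, 40.5 and 42.6 FPKM.

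**Figure D5:**
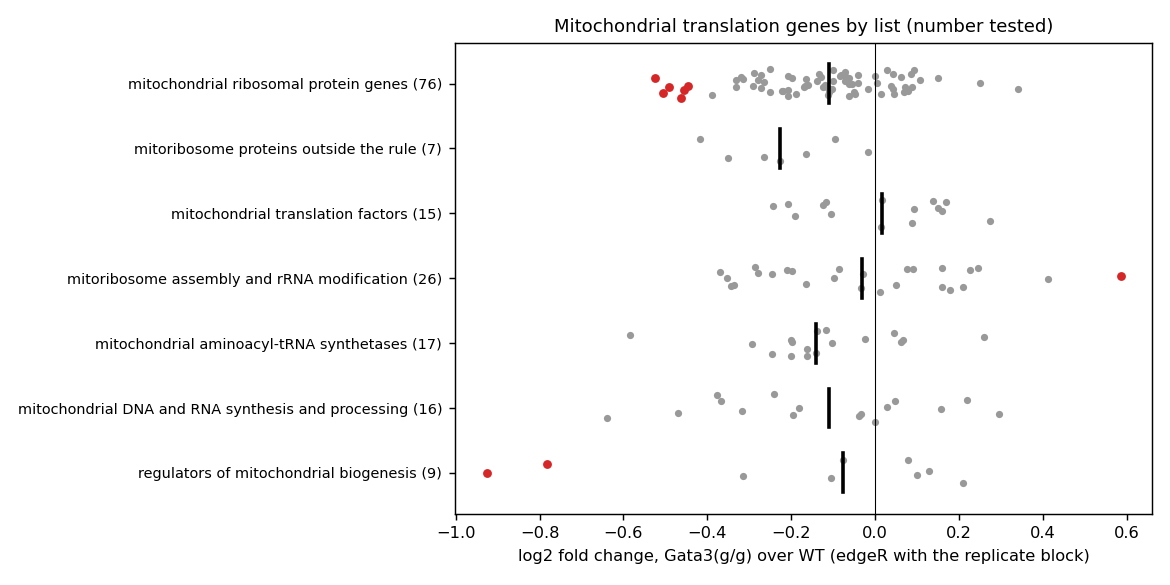
Log2 fold change of Gata3(g/g) over WT from edgeR with the replicate block for each tested gene (points, red where called) by list, with the median of each list as a black bar and the number tested in brackets. The 6 called mitochondrial ribosomal protein genes lie between −0.53 and −0.45, and Myc and Ppargc1b lie lowest among the regulators.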

How the data were processed

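RNA was measured by sequencing in 4 libraries, 2 of WT and 2 of Gata3(g/g) DN3 thymocytes, made with a kit for total RNA per the labels' protocols. Per the submitters' processing notes, the tools were Bowtie2 2.1.0, TopHat2 2.0.8b and Cuffdiff 2.1.1, on build mm10. Strand use in counting and the annotation were not given in the sources used here, so members that overlap antisense genes or have pseudogenes are uncertain (30 of 76 overlap the exons of another gene in GENCODE vM21, build GRCm38). Per the file headers, the deposited per-library values are estimated counts of fragments and FPKM. The deposited comparison of the genotypes gives q-values, p-values and log2 fold changes by Cuffdiff.

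Estimated counts were rounded to whole numbers (97.7% to 98.9% lay within 0.01 of one), and 3 genes that Cuffdiff marked as too deep were left out. Genes averaging 1 FPKM or more (10224) were tested with edgeR 4.0.16 (R 4.3.3), trimmed mean of M values scaling and the two-sided quasi-likelihood F test, adjusted over all of them (Benjamini-Hochberg, 0.05), and the fits were tested on simulated data. The planned test held genotype alone. The labels put same-numbered replicates in the same sequencing run, which pairs them, and the run differences in WT and in Gata3(g/g) correlated at 0.754 (Pearson) across genes, so values with the replicate block (1 residual degree of freedom, which leans on the spread pooled over genes) stand beside it. The SE is the size of the fitted coefficient on the log2 scale, before edgeR's shrinkage, divided by the square root of F. The edgeR log2 fold changes are printed after that shrinkage. A floor of 3 fragments is 0.112 to 0.209 CPM, for counting error only. DESeq2 1.42.0, limma 3.58.1, other scalings and filters, and each library left out were alternatives.

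Members are given by level (5 highest, 3 lowest), by call, by the 3 largest differences of one sign in both runs in each direction, by the 3 widest splits between runs, by the 3 largest run terms in each direction and by place in the ribosome. The members and lists were chosen with earlier results of these data known.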

Additional observations from a re-analysis of the deposited data

How the results depend on the processing

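The replicate block changed the calls. Under the replicate block the count of members lower in Gata3(g/g) went from 0 to 6, and the count stayed at 6, the same genes, with the block and DESeq2 size factors in edgeR or with no filter, both chosen after seeing the data. It was 0 with the block under DESeq2, total fragments, limma and a minimum of 5 FPKM, and under limma after quantile normalization, also chosen after seeing the data. With the stricter minimum 7013 genes were tested, 75 members among them, against 10224. The cause of these losses was not tested. Pathway genes lower numbered 2 with the block alone, with total fragments, with DESeq2 size factors in edgeR or with no filter, 1 with DESeq2 or a minimum of 5 FPKM, and 0 with limma, quantile normalized or not. Pathway genes higher numbered 1 with the block alone, with total fragments, with DESeq2 size factors in edgeR and with no filter, and 0 with the block under DESeq2, a minimum of 5 FPKM and limma, quantile normalized or not. Genes called with genotype alone over the whole table numbered 0 by edgeR, 88 by DESeq2 and 5 by limma, and with the block 705, 417 and 18.

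Members higher in run 2 numbered 9, and 4 with no filter, 4 with limma at a pseudocount of 1, 5 at 0.1 and 2 without the genotype term. Members lower in run 2 numbered 12, and 18 with no filter, 5 with limma at 1, 7 at 0.1 and 2 without the genotype term. For these alternatives the shares of all genes called are not given here. With 1 library left out the run term and the block leave no residual degrees of freedom and could not be fitted.

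The members' median stayed below 0 under all settings run, from −0.17 (without WT replicate 2) to −0.06 (replicate block with total fragments only, where the median of all genes was 0.06). With genotype alone, Mrpl33 was at 0.0005412 under total fragments and Mrpl21 at 0.11 under limma at 1. With the replicate block Mrpl21 was at 0.089. Genotype alone with the standard scaling gave −0.05 for Mrpl33 and −0.07 for Mrpl21. Leaving out 1 library in turn, which leaves 1 library in a genotype, assumed to vary like the others, moved the 6 called members without turning their sign, Mrpl34 from −0.87 to −0.13 and Mrpl52 from −0.82 to −0.16 the most, and turned the sign of several named members with no call: Mrpl33 ranged from −0.15 to 0.049, Mrpl1 from −0.72 to 0.72, Mrpl24 from −0.17 to 0.92, Mrpl49 from −0.081 to 0.22, Mrpl21 from −0.68 to 0.99, Mrps23 from −0.26 to 0.78, Mrpl11 from −0.23 to 0.32, Mrps31 from −0.79 to 0.25, Mrps22 from −0.80 to 0.19, Mrps18b from −0.49 to 0.55, Mrps18a from −0.23 to 0.30 and Mrps36 from −0.29 to 0.43. Each member had at least 149 fragments in every library, and 2 libraries per genotype limit these comparisons.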

Other observations

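Mrpl23, the member with the lowest log2 fold change, lies near H19 on chromosome 7, and its neighbours were looked up after the values were seen. Whether Mrpl23 is itself imprinted was not examined. H19, an imprinted noncoding RNA whose near end lies 34782 bases beyond the end of Mrpl23, measured 29.6 and 28.6 FPKM in WT and 8.52 and 6.06 FPKM in Gata3(g/g), without overlap (log2 fold change −2.01 with an SE of 0.149, and an adjusted p of 2.19e-07 in the blocked edgeR fit). On the other side Lsp1, a cytoskeletal protein of leukocytes, ends 37819 bases before Mrpl23 and went the other way, at 28.1 and 19.5 FPKM in WT and 56.0 and 36.5 FPKM in Gata3(g/g), again without overlap (log2 fold change 0.95 with an SE of 0.134, and an adjusted p of 0.000216 in the blocked edgeR fit). Among the nearest genes on both sides up to Ctsd and Ins2, only Ctsd was also tested, with a log2 fold change of 0.14 and an adjusted p of 0.574 in the blocked edgeR fit. Igf2, an imprinted growth factor gene on the H19 side of Mrpl23, stayed under 0.2 FPKM in each library.

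Directions of members and of the genes that start head to head with them were compared. Of the 22 members with a tested partner, Mrpl46 and Mrps11 counting for each other, 11 had a genotype difference of the same sign as the partner's and 14 a run difference of the same sign. Mrps18b and Ppp1r10, which start 45 bases apart, differed between the runs in opposite directions, by −0.91 and 0.79 on the log2 scale. Of the partners, edgeR with the block called 1, Mitd1, which starts 66 bases from Mrpl30 and was higher in Gata3(g/g) (log2 fold change 0.62, adjusted p = 0.0152), where Mrpl30 stood at −0.25 without a call. Since strand use in counting is not given, reads of such neighbours may be shared where their exons overlap.

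Members were shorter than other tested genes, with a median transcript length of 1038 bases against 2082.5, and had the same median GC content, 50.8%. Across the 76 members the genotype difference had a Spearman correlation of −0.26 with GC content, and across 8869 genes with a value −0.25. With transcript length it was −0.02 across members and 0.11 across all genes. These correlations are across genes, which are not independent, and are descriptions.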
